A study of Mus musculus with 6 samples.

Results

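The genes described here run mitosis: the kinases that start and pace it, the cyclins and phosphatases that switch those kinases on, the kinesin motors, the kinetochore and checkpoint proteins, the regulators and substrates of the anaphase-promoting complex, and proteins of the spindle, the cell cleavage site and the chromosomes. They were chosen by symbol, as 50 genes with these functions. The platform annotation gave 48 of the 50 a probe on the array, and 39 had a probe that was detected well enough to be tested, among 9756 genes tested in all. Ccnb1 and Mki67 had no probe listed under their symbols and were not analysed here.

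Expression was measured on an Illumina mouse bead array in murine cancer cells carrying rat her-2/neu, which encodes a growth factor receptor that can transform cells. In 3 samples the cells were given 8 µM withaferin A, a steroidal lactone from a medicinal plant, for 6 h, and 3 samples were left untreated. Both groups expressed that gene and were grown in medium with 20% serum, gentamicin and L-glutamine. The labels state that the replicates were done at early passages without saying which replicate had which passage, so the p-values measure the spread between these samples, which may be technical. The promoter that drives her-2/neu, the strain and the number of cell lines are not given in the sources used here. All samples were bulk RNA, in which fewer mitotic cells and less RNA of these genes per cell cannot be told apart.

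Mitosis begins when CDK1 with its cyclin is activated by CDC25 phosphatases. Microtubules and kinesin motors then build a bipolar spindle that attaches to chromosomes at kinetochores. Kinetochores that are not yet attached feed the spindle checkpoint, which holds back the anaphase-promoting complex (APC/C), a ubiquitin ligase. Once released, this complex marks securin and the cyclins for destruction, the sister chromatids separate and the cell divides. Transcripts of these genes accumulate in G2 and mitosis and are low in G1, so that in a culture of cycling cells their levels follow the share of cells in those phases. Much of this control runs through a promoter element called the cell cycle homology region (CHR), which is bound by the DREAM and MMB-FOXM1 complexes, together with CCAAT boxes bound by NF-Y.

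Levels below are log2 intensities after background correction and quantile normalization, so that a difference of 1 is a doubling, and changes are withaferin A minus untreated. Where a gene had several tested probes, the brightest on average stands for it, and levels are not compared between genes. Median raw intensity over the tested probes was 191.8 to 202 on the withaferin A arrays and 218.5 to 235.9 on the untreated arrays, and 18275 to 18558 probes were detected on withaferin A arrays against 18608 to 20104 on untreated arrays. Of 7 mammary epithelial markers, 5 were detected on all 6 arrays (Krt8, Krt18, Cdh1, Cldn3 and Erbb2), whereas Epcam was detected on none. Of 6 fibroblast markers, Pdgfra and Dcn were detected on all 6 arrays, and Col1a1, Col3a1 and Lum on none. The summed normalized intensity of the fibroblast list was 1617 to 2146 with withaferin A and 2986 to 4995 in untreated cells, and it rested on Pdgfra and Dcn. That of the epithelial list was 11296 to 15114.4 with withaferin A and 14408.4 to 17085.5 in untreated cells, with an overlap. The epithelial sum rested mainly on Krt8 and Krt18, and single markers of that list differed in direction. On the log2 scale, Krt18 was lower on every withaferin A array, at 11.12 to 11.83 against 12.08 to 12.29. Erbb2 was higher, at 7.12 to 7.29 against 6.59 to 6.93. Krt8, Cdh1 and Cldn3 overlapped between the groups. Krt19, detected on 4 arrays, ran from 4.83 to 8.68 with withaferin A and from 4.65 to 7.91 in untreated cells. The part of either list in the differences of the mitotic genes was not tested. The 4 leukocyte markers with a probe were detected on no array.

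Promoter sequence is shown first because the CHR and the CCAAT box were found in most windows of the mitotic genes. RefSeq promoter windows of build GRCm38.p6, from 250 bases before to 50 after each annotated start, were matched by symbol for 44 of the 50 genes. They were searched on both strands, with overlapping matches counted, for TTTGAA and TTCGAA (CHR), CCAAT (NF-Y), and TTCCCGC and TTGGCGC (E2F). The last 120 bases before the start are printed for 7 genes, picked after their motifs and values had been seen: the 2 genes that passed the test, 4 that carry both elements near the start, and Cdca5, whose change was positive. Capitals mark matches on either strand, and a lower-case sequence has none.
Nusap1: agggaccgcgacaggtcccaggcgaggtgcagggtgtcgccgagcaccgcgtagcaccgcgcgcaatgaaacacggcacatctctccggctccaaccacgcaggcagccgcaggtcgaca
Kif11: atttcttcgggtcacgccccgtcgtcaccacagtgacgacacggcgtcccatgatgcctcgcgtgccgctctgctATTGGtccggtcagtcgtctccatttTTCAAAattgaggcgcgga
Top2a: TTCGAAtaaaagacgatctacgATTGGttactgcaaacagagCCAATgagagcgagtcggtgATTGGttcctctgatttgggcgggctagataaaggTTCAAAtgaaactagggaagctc
Cdk1: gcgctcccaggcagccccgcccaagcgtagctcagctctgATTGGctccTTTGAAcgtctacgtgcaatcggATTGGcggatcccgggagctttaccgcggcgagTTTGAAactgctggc
Espl1: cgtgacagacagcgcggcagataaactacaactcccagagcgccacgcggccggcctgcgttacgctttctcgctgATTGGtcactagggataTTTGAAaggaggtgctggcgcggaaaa
Cdc20: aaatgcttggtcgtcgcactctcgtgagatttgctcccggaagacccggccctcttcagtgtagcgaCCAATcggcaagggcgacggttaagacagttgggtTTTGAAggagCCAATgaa
Cdca5: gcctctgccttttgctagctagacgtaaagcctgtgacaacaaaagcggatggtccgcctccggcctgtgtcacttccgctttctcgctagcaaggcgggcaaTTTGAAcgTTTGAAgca
These stretches lie at chr2:119618178-119618297, plus strand (Nusap1), chr19:37376262-37376381, plus strand (Kif11), chr11:99024190-99024309, minus strand (Top2a), chr10:69352913-69353032, minus strand (Cdk1), chr15:102296173-102296292, plus strand (Espl1), chr4:118437344-118437463, minus strand (Cdc20) and chr19:6084977-6085096, plus strand (Cdca5).

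Counting backwards from the annotated start, the CHR of Kif11 began at position -19 with a CCAAT box at -45, and that of Espl1 began at -27 with a CCAAT box at -44. Cdc20 had a CHR at -18 between CCAAT boxes at -53 and -8. Cdk1 had CHRs at -71 and -15 and, within the printed stretch, CCAAT boxes at -80 and -48. Cdca5 held 2 CHRs, at -17 and -9, and no CCAAT box. Over the windows of the tested members, 30 of 39 windows (76.9%) held a CHR, 29 (74.4%) a CCAAT box, 25 (64.1%) both, and 7 (17.9%) an E2F motif. Over the 10192 windows of all genes tested on the array, the shares were 13.6% for the CHR, 37.7% for the CCAAT box, 5.47% for both and 12.1% for E2F. Over all 32851 windows in the table they were 19.2%, 37.4%, 7.52% and 6.81% in the same order. High shares were not particular to the members. Over the 62 windows of the other mitotic genes tested, described below, they were 56.5%, 54.8%, 37.1% and 25.8%.

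Members with and without a CHR had similar median changes, a difference that was not tested. The 27 tested members with a CHR in a window had a median log2 change of -0.56, with a range from -1.10 to 0.17. The 7 without one had a median of -0.52, with a range from -1.36 to -0.32. For the CCAAT box, the median was -0.56 over the 24 members with one and -0.45 over the 10 without. That difference was not tested either. Nusap1, the member with the lowest change, had none of the searched motifs in its printed stretch and no CHR or CCAAT box in its window, while Cdca5 had 2 CHRs and the highest change. A match of 5 to 7 letters is a description of the sequence and not evidence of binding.

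**Figure D1:**
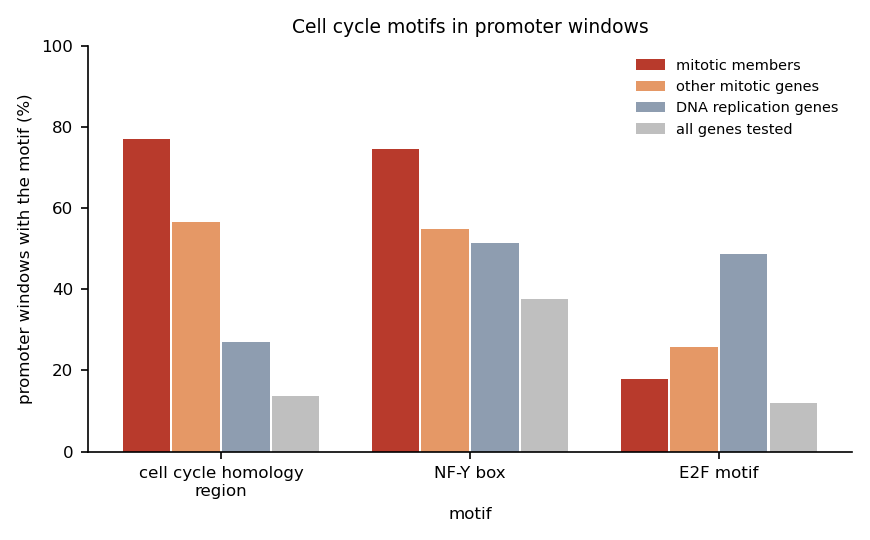
Share of RefSeq promoter windows (%) that hold a CHR, a CCAAT box or an E2F motif on either strand, for the tested members, other mitotic genes, DNA replication genes and all genes tested on the array. Bars start at 0 and carry no error. For the CHR, the members stand at 76.9%, the other mitotic genes at 56.5% and the windows of all tested genes at 13.6%. The replication genes are highest for E2F, at 48.6%.

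After withaferin A, nearly all mitotic genes had lower mean levels, but few passed the test gene by gene. The median log2 change over the 39 members was -0.56, or 1.47-fold lower, against 0.01 over all 9756 genes tested, and the members ranged from -1.36 to 0.17. The change was negative for 37 of 39 members (94.9%), against 49.3% of all genes. In limma with Benjamini-Hochberg adjustment over all 19077 tested probes, 2 of 39 members (5.13%) fell, Nusap1 and Kif11, and 0 rose. Over all genes 6.83% passed in either direction, 4.02% lower and 2.81% higher, so the members' share of calls lay near the background in this fit. At an unadjusted p under 0.05, 21 of 39 members (53.8%), all lower, passed, against 14.2% of all genes that were lower at that level. A further 6 members (15.4%) had an adjusted p between 0.05 and 0.1, against 6.53% of all genes in either direction. In all 3 same-numbered pairs of arrays, 33 of 39 members (84.6%) were lower with withaferin A, against 25.6% of all genes. With the replicate number as a block in limma, 12 of 39 members (30.8%) passed, against 10.5% of all genes. The main fit has no block, since the labels do not state a pairing. Both the calls and the median rested on the choice of arrays: without untreated array 2, 9 members passed (Cdk1, Cenpf, Cenpk, Kif11, Kif18a, Kif20b, Nusap1, Spc25 and Top2a), without withaferin A array 1 Bub1b and Nusap1 did, without withaferin A array 2 or 3 Nusap1 alone did, and without untreated array 1 or 3 none did. The share of members called was 23.1% without untreated array 2, against 4.48% of all genes in the same fit, and 5.13% against 2.44% without withaferin A array 1. It was 2.56% without withaferin A array 2 or 3, against 3.27% and 9.08% of all genes, and 0% without untreated array 1 or 3, against 4.62% and 3.23%. The median change was -0.36 without untreated array 1 and -0.36 with array weights. The calls also moved with the normalization, and quantile normalization gives every array the same distribution. Scaling to a common median moved the median of all genes to -0.18 and gave 17 members called (43.6%, against 14.6% of all genes), with 172 genes higher and 1256 lower over the array in place of 274 and 392, yet the members' median relative to all genes was -0.58 there and -0.56 in the main setting.

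**Figure D2:**
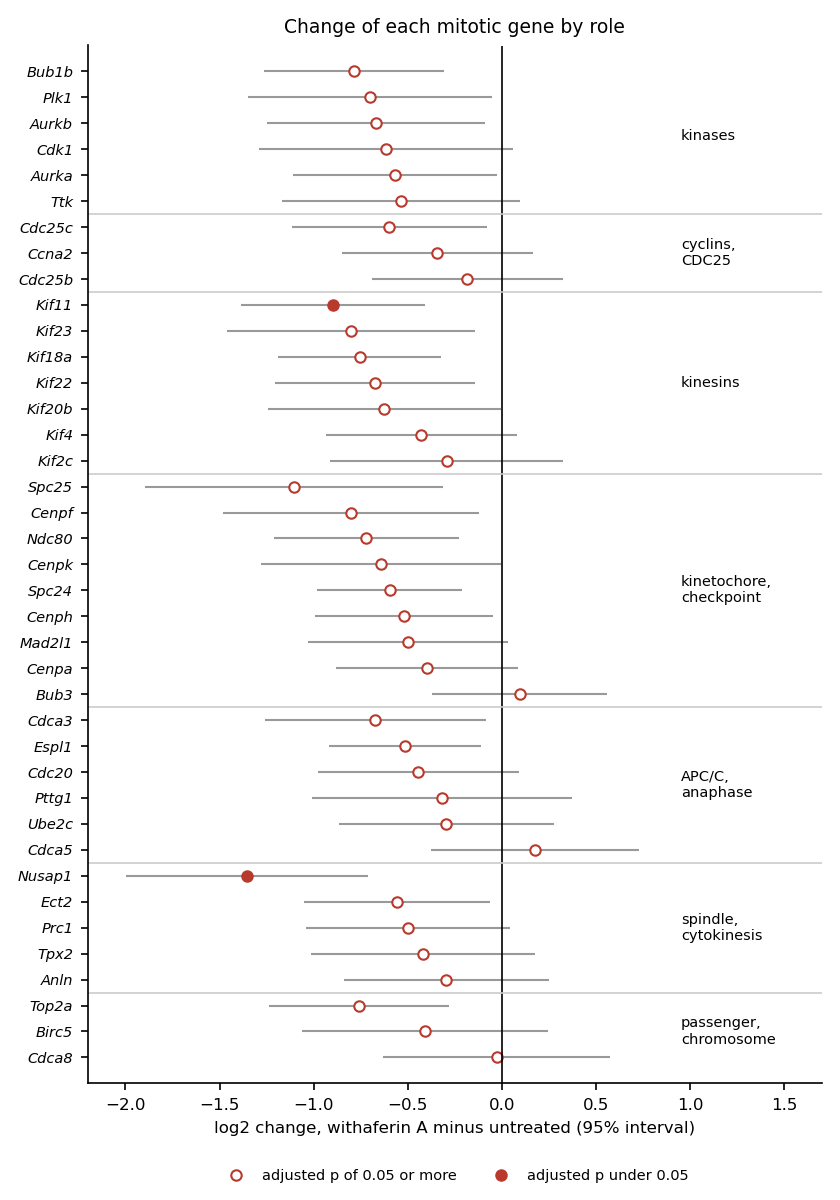
Log2 change of each tested member, withaferin A minus untreated, by role, with 95% intervals from the limma fit (n = 3 arrays each). Filled points passed an adjusted p of 0.05, which were Nusap1 at -1.36 and Kif11 at -0.90, and 37 of 39 points lie below 0.

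The members varied more between arrays of one group than most genes did. Their median pooled within-group SD was 0.374 on the log2 scale, against 0.220 over all genes tested. This was not particular to the members, since it was 0.357 for the other mitotic genes and 0.419 for the DNA replication genes described below. The distance between the highest and lowest array had a median of 0.688 with withaferin A and 0.736 in untreated cells, against 0.361 and 0.401 over all genes. These ranges were larger than the median absolute change between the groups, which was 0.556 for the members. The same held over all genes, with a median absolute change of 0.245. Every withaferin A array lay below every untreated array for 12 of 39 members (30.8%), against 15.8% of all genes. Leaving out an array cannot lower that count. It was 25 without withaferin A array 1, with 18.2% of all genes, and 30 without untreated array 2, with 20.6% of all genes. It stayed at 12 without withaferin A array 2 or 3, with 19.1% and 24.1% of all genes. Without untreated array 1 or 3 it was also 12, with 21.5% and 20.1% of all genes. It reached 19 of 39 with median scaling and 24 of 39 without normalization between arrays, with 29.7% and 32.6% of all genes.

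The spread between arrays was shared by the members. Withaferin A array 1 was the highest of its group for 36 of 39 members and untreated array 1 the highest of its group for 38, against 21.6% and 31.4% of all genes. Withaferin A array 2 was the lowest of its group for 30 members and untreated array 2 for 34, against 38.3% and 32.0% of all genes. Array 1 was the highest in both groups for 36 members (92.3%), against 9.13% of all genes. Array 2 was the lowest in both groups for 25 members (64.1%), against 10.8% of all genes. This order was not particular to the members. The mean of the other mitotic genes described below was 8.079, 7.726 and 7.732 on withaferin A arrays 1 to 3. On untreated arrays 1 to 3 that mean was 8.648, 8.018 and 8.276. Averaged over the 39 members, the level was 8.93, 8.33 and 8.60 on withaferin A arrays 1 to 3, against 9.52, 8.76 and 9.19 on untreated arrays 1 to 3, or 8.62 ± 0.30 and 9.16 ± 0.38 (SD, n = 3 each). The groups overlapped, because withaferin A array 1 stood above untreated array 2, and the member medians of that difference and of the difference between untreated arrays 1 and 2 were 0.24 and 0.73. After removal of the group means, the deviations of any 2 members over the 6 arrays had a median Pearson's r of 0.82, and all 741 pairs were positive. This is a description over 6 arrays, whose probes share the array and its RNA. Members that followed the mean deviation least were Bub3 (r = 0.66), Cdc25b (r = 0.67) and Cdca8 (r = 0.74), picked for that value.

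**Figure D3:**
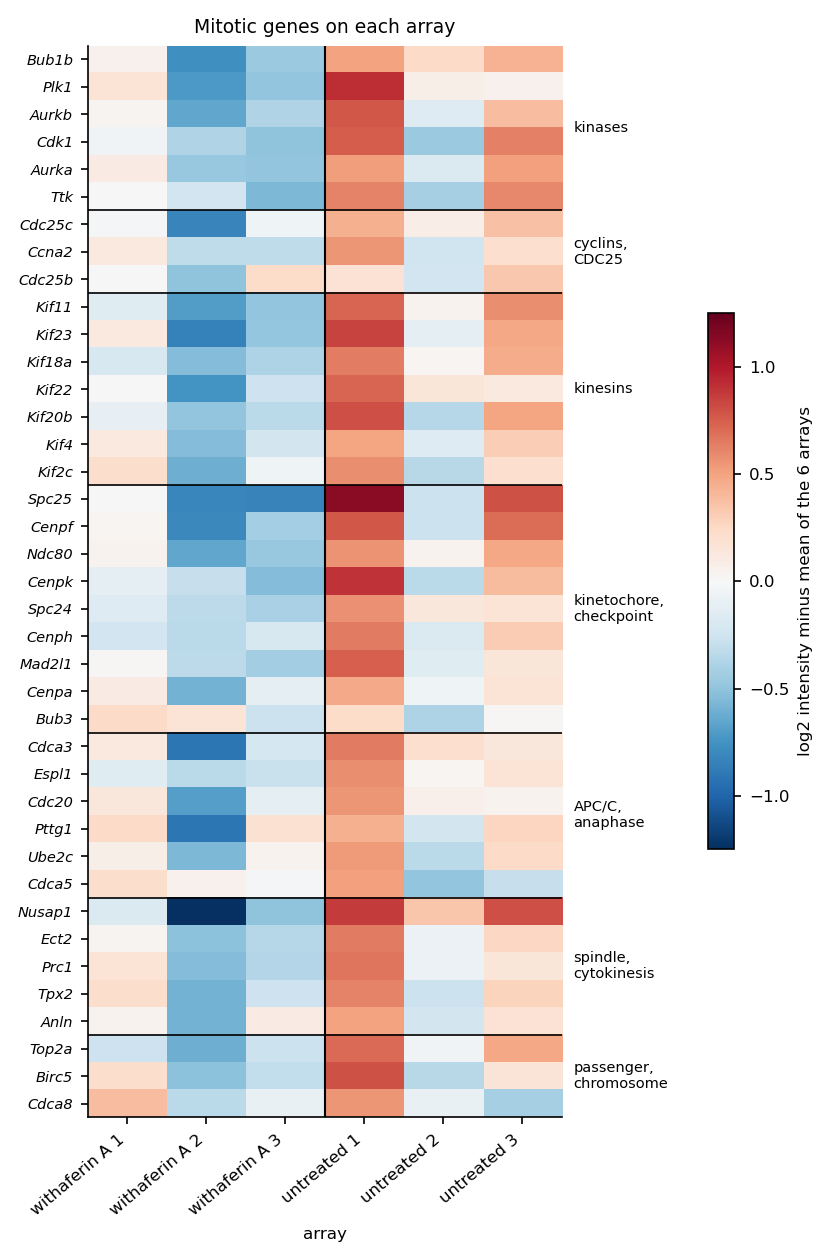
Log2 intensity of the 39 tested members on each array, minus the gene's mean over the 6 arrays, with members grouped by role (rows) and withaferin A arrays left of untreated arrays (columns). Untreated array 1 is the highest of its group in 38 rows and withaferin A array 2 the lowest of its group in 30.

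Among the mitotic kinases, 6 of 8 were tested, all 6 changes were negative, and the median was -0.64. None passed the adjusted threshold in limma, and 4 passed at an unadjusted p under 0.05. Of all genes, 14.2% were lower at that level, which is the background for such counts in every role below. Bub1b, which encodes the checkpoint protein BubR1, had 9.77, 8.96 and 9.25 on withaferin A arrays 1 to 3, against 10.22, 9.96 and 10.16 on untreated arrays 1 to 3. The groups did not overlap, and the change was -0.79 (SE 0.21, adjusted p = 0.0617). Its second probe, which was dimmer, passed the test with a change of -0.79 and an adjusted p of 0.0409. Plk1, the polo-like kinase of centrosome maturation and mitotic exit, had 9.95, 9.07 and 9.29 on withaferin A arrays 1 to 3, against 10.71, 9.86 and 9.84 on untreated arrays 1 to 3. Withaferin A array 1 lay above untreated arrays 2 and 3, and the change was -0.70 (SE 0.29, adjusted p = 0.176). Aurkb, the catalytic subunit of the chromosomal passenger complex, had 9.53, 8.84 and 9.11 on withaferin A arrays 1 to 3, against 10.27, 9.34 and 9.88 on untreated arrays 1 to 3, again with an overlap through withaferin A array 1 and untreated array 2. Its change was -0.67 (SE 0.26, adjusted p = 0.153), and its deviations followed the mean of the members at r = 0.999. The other tested kinases were Cdk1, the main driver of mitotic entry, with -0.62 (SE 0.30, adjusted p = 0.242), Aurka, the centrosomal Aurora kinase, with -0.57 (SE 0.24, adjusted p = 0.186), and Ttk, the checkpoint kinase also called Mps1, with -0.54 (SE 0.28, adjusted p = 0.276). For Cdk1, the level on withaferin A array 2 (10.49) was above that on untreated array 2 (10.40).

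Of the cyclins and CDC25 phosphatases, 3 of 5 were tested and all 3 changes were negative, with a median of -0.34. In limma 0 passed, and 1 did at an unadjusted p under 0.05. Cdc25c, a phosphatase that activates CDK1, had 7.30, 6.50 and 7.26 on withaferin A arrays 1 to 3, against 7.77, 7.40 and 7.69 on untreated arrays 1 to 3. The groups did not overlap, and the change was -0.60 (SE 0.23, adjusted p = 0.154), with -1.10 (adjusted p = 0.104) at its second tested probe. Ccna2, which encodes cyclin A2, was dim: it was detected on 1 of 3 withaferin A arrays and 2 of 3 untreated arrays, so its levels are near the background. It had 4.99, 4.55 and 4.56 on withaferin A arrays 1 to 3, against 5.43, 4.62 and 5.08 on untreated arrays 1 to 3, with an overlap and a change of -0.34 (SE 0.23, adjusted p = 0.386). Cdc25b, the phosphatase that acts first at mitotic entry, had 7.06, 6.57 and 7.29 on withaferin A arrays 1 to 3, against 7.24, 6.82 and 7.40 on untreated arrays 1 to 3, and its groups overlapped throughout. Its change was -0.18 (SE 0.23, adjusted p = 0.661) and turned to 0.018 without withaferin A array 2.

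All 7 tested kinesins of 9 had negative changes, with a median of -0.67. Kif11 fell, and 5 of 7 had an unadjusted p under 0.05. Kif11, the motor Eg5 that pushes spindle poles apart, had 8.13, 7.59 and 7.79 on withaferin A arrays 1 to 3, against 9.01, 8.33 and 8.86 on untreated arrays 1 to 3. Every withaferin A array was below every untreated array, with 7.84 ± 0.27 with withaferin A and 8.73 ± 0.36 in untreated cells (SD, n = 3 each). The change was -0.90 (SE 0.22, adjusted p = 0.0444), or 1.86-fold lower. This call was near the threshold, and it was lost without untreated array 1 (adjusted p = 0.110) or 3 (adjusted p = 0.145), with withaferin A array 1 (0.0741), 2 (0.144) or 3 (0.0604) left out, without background correction (0.0569) and with no filter on dim probes (0.144), while the change stayed between -1.18 and -0.70 over these and the other settings.

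Kif18a, a motor that aligns chromosomes at the spindle centre, had 7.51, 7.16 and 7.32 on withaferin A arrays 1 to 3, against 8.34, 7.73 and 8.17 on untreated arrays 1 to 3. The groups did not overlap, and the change was -0.76 (SE 0.19, adjusted p = 0.0518). Its second tested probe, which was dimmer, had a smaller change of -0.28 (adjusted p = 0.522). Kif23, a subunit of the centralspindlin complex of the cleavage site, had 11.27, 10.31 and 10.67 on withaferin A arrays 1 to 3, against 11.99, 11.03 and 11.63 on untreated arrays 1 to 3. Here withaferin A array 1 lay above untreated array 2, and the change was -0.80 (SE 0.29, adjusted p = 0.137). Its 4 tested probes ran from -0.99 to 0.17, a span of 1.17 that was the widest of the 20 members with several tested probes. The remaining tested kinesins were Kif22, a chromosome-arm motor (-0.67), Kif20b, a motor of cytokinesis (-0.62), Kif4, which organises the central spindle (-0.43), and Kif2c, the microtubule-depolymerising motor MCAK (-0.29), with adjusted p-values of 0.123, 0.201, 0.278 and 0.551 in that order.

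Of the kinetochore and checkpoint proteins, 9 of 10 were tested and 8 changes were negative, with a median of -0.59. In limma 0 passed, and 6 had an unadjusted p under 0.05. Spc25, a subunit of the NDC80 complex that grips microtubules, had 8.50, 7.69 and 7.67 on withaferin A arrays 1 to 3, against 9.63, 8.24 and 9.30 on untreated arrays 1 to 3. Both withaferin A arrays 2 and 3 were below all untreated arrays, while withaferin A array 1 was above untreated array 2. The change was -1.10 (SE 0.35, adjusted p = 0.0971), or 2.15-fold lower, the second largest of the members after Nusap1 in size but with the widest standard error of the 39. The 2 other tested subunits of that complex were Ndc80, with 9.07, 8.38 and 8.56 on withaferin A arrays 1 to 3, against 9.59, 9.07 and 9.51 on untreated arrays 1 to 3, and Spc24. For Ndc80, withaferin A array 1 lay below untreated array 2 by less than the second decimal, so that the groups barely stood apart, and its change was -0.72 (SE 0.22, adjusted p = 0.0853). For Spc24 the groups did not overlap and the change was -0.59 (SE 0.17, adjusted p = 0.0732).

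Cenpf, a large protein of the outer kinetochore, had 7.08, 6.24 and 6.63 on withaferin A arrays 1 to 3, against 7.83, 6.78 and 7.75 on untreated arrays 1 to 3, with a change of -0.80 (SE 0.30, adjusted p = 0.145). Its withaferin A array 1 was above untreated array 2 alone. Cenpk and Cenph, of the inner kinetochore network, had changes of -0.64 (SE 0.28, adjusted p = 0.204) and -0.52 (SE 0.21, adjusted p = 0.169). Cenpa, the histone H3 variant that marks centromeres, had -0.40 (SE 0.22, adjusted p = 0.29). Mad2l1, the checkpoint protein that sequesters CDC20, had -0.50 (SE 0.24, adjusted p = 0.23). Bub3, its partner in the checkpoint complex, was 1 of only 2 members with a positive change. It had 8.50, 8.43 and 7.99 on withaferin A arrays 1 to 3, against 8.49, 7.88 and 8.28 on untreated arrays 1 to 3, and the change was 0.09 (SE 0.21, adjusted p = 0.824). That sign was not stable: it was -0.15 with median scaling, -0.19 without normalization between arrays, -0.074 without untreated array 2 and -0.0014 without withaferin A array 1.

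Among the regulators of the APC/C and proteins of anaphase, 6 of 7 were tested and 5 changes were negative, with a median of -0.38. None passed in limma, and 2 had an unadjusted p under 0.05. Cdca3, a trigger of mitotic entry that is itself degraded through the APC/C, had 9.47, 8.44 and 9.13 on withaferin A arrays 1 to 3, against 10.00, 9.56 and 9.49 on untreated arrays 1 to 3. Its groups did not overlap, narrowly, and the change was -0.67 (SE 0.26, adjusted p = 0.156). Espl1, which encodes separase, the protease that cuts cohesin, had 6.37, 6.18 and 6.25 on withaferin A arrays 1 to 3, against 7.11, 6.55 and 6.70 on untreated arrays 1 to 3. This member too had no overlap, and its withaferin A arrays lay within 0.19 of each other, with a change of -0.52 (SE 0.18, adjusted p = 0.119). Cdc20, the activator of the APC/C that the checkpoint restrains, had 10.91, 10.08 and 10.66 on withaferin A arrays 1 to 3, against 11.33, 10.84 and 10.82 on untreated arrays 1 to 3. Withaferin A array 1 was above untreated arrays 2 and 3, and the change was -0.44 (SE 0.24, adjusted p = 0.285). Its 4 probes ran from -0.58 to -0.43. Ube2c, the ubiquitin-conjugating enzyme of the APC/C, and Pttg1, which encodes securin, had -0.29 (SE 0.25, adjusted p = 0.513) and -0.32 (SE 0.31, adjusted p = 0.565), and the change of Pttg1 was 0.054 without withaferin A array 2. Cdca5, which encodes the cohesin protector sororin and is named here because it is the other member with a positive change, had 7.97, 7.82 and 7.74 on withaferin A arrays 1 to 3, against 8.27, 7.27 and 7.47 on untreated arrays 1 to 3, with a change of 0.17 (SE 0.25, adjusted p = 0.709). That change too turned, to -0.073 with median scaling, -0.12 with no normalization between arrays and -0.027 when untreated array 2 was left out, settings under which all 39 changes were negative.

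Of the proteins of spindle assembly and cytokinesis, 5 of 7 were tested, all changes were negative, and the median was -0.50. Nusap1 fell, and 2 of 5 had an unadjusted p under 0.05. Nusap1, a protein that bundles microtubules near chromosomes, had 10.47, 9.30 and 10.15 on withaferin A arrays 1 to 3, against 11.52, 11.00 and 11.46 on untreated arrays 1 to 3. The highest withaferin A array was below the lowest untreated array, with 9.97 ± 0.60 with withaferin A and 11.33 ± 0.28 in untreated cells (SD, n = 3 each). The change was -1.36 (SE 0.29, adjusted p = 0.0272), or 2.56-fold lower. A second probe also passed, at -1.03 (adjusted p = 0.00930), and the third did not, at -0.57 (adjusted p = 0.133). The call on the brightest probe was lost without untreated array 1 (adjusted p = 0.0743) or 3 (adjusted p = 0.108) and with no filter on dim probes (adjusted p = 0.135), in which the change stayed the same.

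Ect2, the exchange factor that activates RhoA at the cleavage site, had 7.75, 7.19 and 7.35 on withaferin A arrays 1 to 3, against 8.36, 7.64 and 7.97 on untreated arrays 1 to 3, with a change of -0.56 (SE 0.22, adjusted p = 0.163). Prc1, which crosslinks the microtubules of the central spindle, had 12.34, 11.63 and 11.81 on withaferin A arrays 1 to 3, against 12.84, 12.10 and 12.32 on untreated arrays 1 to 3, with a change of -0.50 (SE 0.24, adjusted p = 0.241). In both, withaferin A array 1 exceeded untreated array 2. Tpx2, the activator of Aurora A on the spindle, had -0.42 (SE 0.27, adjusted p = 0.364), and Anln, the actin-binding protein anillin, had -0.30 (SE 0.24, adjusted p = 0.489).

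For the chromosomal passenger complex and chromosome structure, 3 of 4 genes were tested, with a median of -0.41, and 0 passed in limma while 1 had an unadjusted p under 0.05. Top2a, the DNA topoisomerase that untangles sister chromatids, had 11.09, 10.74 and 11.08 on withaferin A arrays 1 to 3, against 12.05, 11.30 and 11.83 on untreated arrays 1 to 3. The groups did not overlap, and the change was -0.76 (SE 0.21, adjusted p = 0.0674). Its other tested probes, which were dimmer, had smaller changes of -0.57 (adjusted p = 0.249) and -0.26 (adjusted p = 0.405). Birc5, which encodes survivin, had 11.17, 10.43 and 10.64 on withaferin A arrays 1 to 3, against 11.75, 10.61 and 11.11 on untreated arrays 1 to 3, with an overlap and a change of -0.41 (SE 0.29, adjusted p = 0.427). Cdca8, which encodes borealin, had 10.35, 9.63 and 9.87 on withaferin A arrays 1 to 3, against 10.52, 9.87 and 9.55 on untreated arrays 1 to 3, and its groups overlapped across most of their range. Its change was -0.03 (SE 0.27, adjusted p = 0.963) and was positive without untreated array 1 (0.24), without withaferin A array 2 (0.13) or 3 (0.0093) and with array weights (0.22). Survivin and borealin act in a complex with Aurora B, and Aurkb and Birc5 had the larger changes of the 3 genes.

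**Figure D4:**
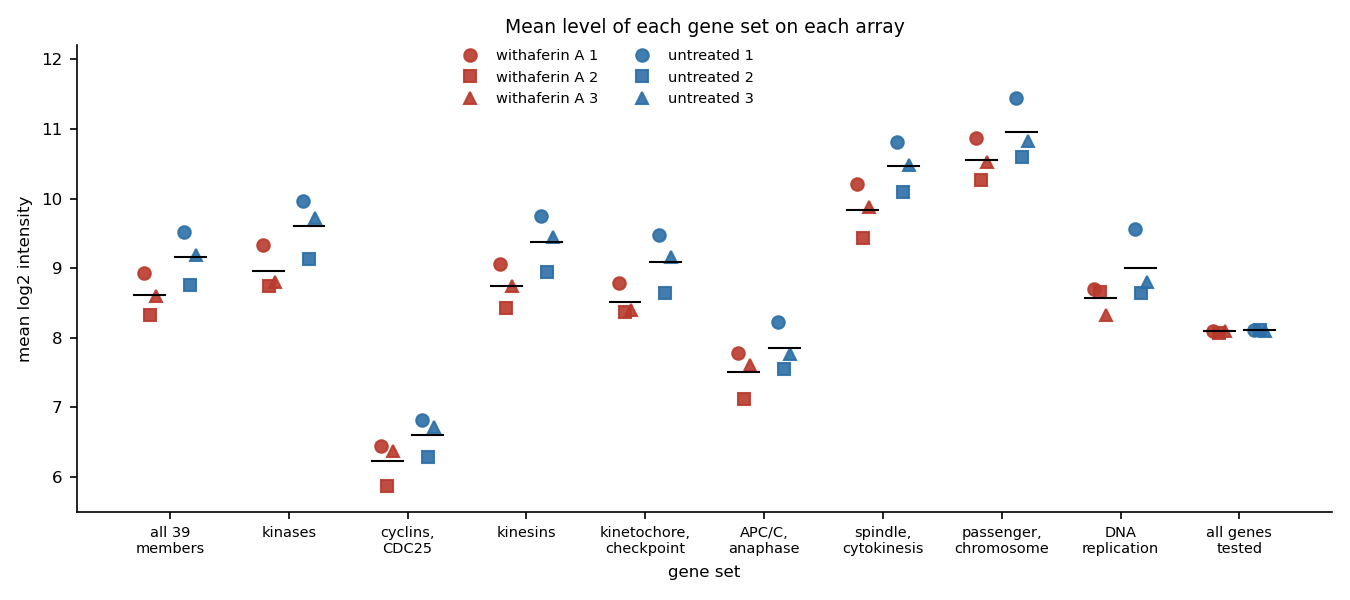
Mean log2 intensity of each gene set on each array, with withaferin A arrays left of untreated arrays, symbols marking the array number and black lines the group means. In all 7 roles the highest withaferin A array reaches above the lowest untreated array, and the means of all genes tested differ by under 0.05 between arrays.

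Grouped another way, 17 of the 50 genes encode known substrates of the APC/C and 12 of these were tested. Their median change was -0.43, with 11 of 12 negative and 1 called (Nusap1). The other 27 tested members had a median of -0.59, with 26 negative and 1 called (Kif11). Groups did not overlap for 2 of 12 substrates (16.7%) and 10 of 27 others (37.0%), against 15.8% of all genes, and the difference between the 2 sets was not tested. Within both sets array 1 was the highest on average in each group.

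The 9 members listed on the array but not tested were Bub1 and Nek2, both kinases, Ccnb2, a B-type cyclin, Cenpe and Kif20a, both kinesins, Nuf2 of the NDC80 complex, Fbxo5, an inhibitor of the APC/C, and Hmmr and Racgap1 of the spindle and cleavage site. Their 14 probes had raw intensities of 53.7 to 80.4 on withaferin A arrays and 63.0 to 90.5 on untreated arrays. Only 1 of these probes, for Hmmr, was detected, and on 1 array. No level is given for these genes, which were not well above background.

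For 20 members, 2 to 4 probes were tested. The changes of a member's probes differed by 0.15 or less for 12 of these 20, and by more than 0.4 for Kif23, Nusap1, Cdc25c, Top2a and Kif18a. Kif23 alone had tested probes with both signs.

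Other genes of mitosis had mostly negative changes too. Of 83 names, 70 were on the array and 63 tested: 59 changes were negative and the median was -0.46. In limma 6 of 63 passed lower and 0 higher, against 4.02% and 2.81% of all genes. The 5 with the largest changes were Aspm, a spindle pole protein, at -1.36 (SE 0.33, adjusted p = 0.0427), Depdc1a at -1.28 (SE 0.24, adjusted p = 0.0169), Iqgap3, a scaffold protein, at -1.20 (SE 0.30, adjusted p = 0.0495), Oip5, which helps load CENP-A, at -1.18 (SE 0.26, adjusted p = 0.0313), and Ckap2, a spindle protein, at -1.15 (SE 0.21, adjusted p = 0.0138). Aspm had 7.09, 6.27 and 6.83 on withaferin A arrays 1 to 3, against 8.27, 7.35 and 8.66 on untreated arrays 1 to 3, with no overlap. The calls depended on single arrays here too, since 0 of the 63 passed when untreated array 3 was left out, 1 when withaferin A array 2 was, 2 when array 1 of either group was, 5 when withaferin A array 3 was and 8 when untreated array 2 was. Of all genes, 3.23% passed without untreated array 3, 3.27% without withaferin A array 2 and 9.08% without withaferin A array 3. The share was 2.44% without withaferin A array 1, 4.62% without untreated array 1 and 4.48% without untreated array 2. None of the other mitotic genes passed with no filter on dim probes, against 1.77% of all genes.

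The subunits and coactivators of the APC/C had a median change of -0.16 over 13 tested genes, and 9 were negative. Cdc23, a scaffold subunit, fell, with -0.67 (SE 0.17, adjusted p = 0.0488), and its call was lost without any 1 of the 6 arrays. The regulators of the G2/M transcription programme had a median of -0.14 over 20 tested genes, with 1 lower and 1 higher. Rb1, the retinoblastoma gene, had 7.15, 6.62 and 7.23 on withaferin A arrays 1 to 3, against 8.29, 8.52 and 8.42 on untreated arrays 1 to 3, and it fell by 1.41 on the log2 scale, or 2.65-fold lower (SE 0.19, adjusted p = 0.00352), a call kept without each of the 6 arrays. E2f3, a transcription factor that drives S phase entry, rose, with 0.72 (SE 0.16, adjusted p = 0.0311), though it lost the call under median scaling (adjusted p = 0.103), without normalization between arrays (0.138), with the mean of its probes (0.119) and without 4 of the 6 arrays in turn. Foxm1 and Mybl2, the factors that activate CHR promoters, had -0.25 (adjusted p = 0.614) and -0.30 (adjusted p = 0.603), and are named for that role.

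Genes of the G2 arrest response passed in both directions, with 3 higher, 2 lower and 6 not passing of 11 tested. Cdkn1a, which encodes the CDK inhibitor p21, had 9.78, 9.61 and 8.84 on withaferin A arrays 1 to 3, against 8.02, 7.41 and 7.18 on untreated arrays 1 to 3. The groups were far apart, and the change was 1.87 (SE 0.28, adjusted p = 0.00611), or 3.66-fold higher, a call kept without each of the 6 arrays and lost with no filter on dim probes (adjusted p = 0.0676). Plk3, a stress-responsive polo-like kinase, and Gadd45g, a growth arrest gene, rose, with 1.10 (SE 0.19, adjusted p = 0.0108) and 0.83 (SE 0.20, adjusted p = 0.0454). Gadd45a, another growth arrest gene, and Chek2, a DNA damage checkpoint kinase, fell, with -1.62 (SE 0.29, adjusted p = 0.0138) and -0.98 (SE 0.20, adjusted p = 0.0231). Gadd45g lost its call without any 1 of the 6 arrays, Chek2 without 4 of them, Plk3 without withaferin A array 1 (adjusted p = 0.0507) and Gadd45a without untreated array 3 (adjusted p = 0.0520). With no filter these 4 were not called.

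DNA replication genes, which peak before mitosis, gave a similar median but other array levels. Of 40 names 36 were tested, the median change was -0.48, 35 were negative, and 1 fell, Prim1, a primase subunit. Prim1 was detected on no withaferin A array and was at least 1.35-fold lower there (adjusted p = 0.0404), a bound set by the background, and its call was lost without any 1 of the 6 arrays. The mean of the replication genes was 8.70, 8.66 and 8.33 on withaferin A arrays 1 to 3, against 9.56, 8.64 and 8.79 on untreated arrays 1 to 3. Withaferin A arrays 1 and 2 differed by 0.04 in this mean but by 0.60 in the mean of the mitotic members, whereas untreated arrays 1 and 2 differed by 0.92 and 0.77. The difference between the 2 lists was not tested.

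**Figure D5:**
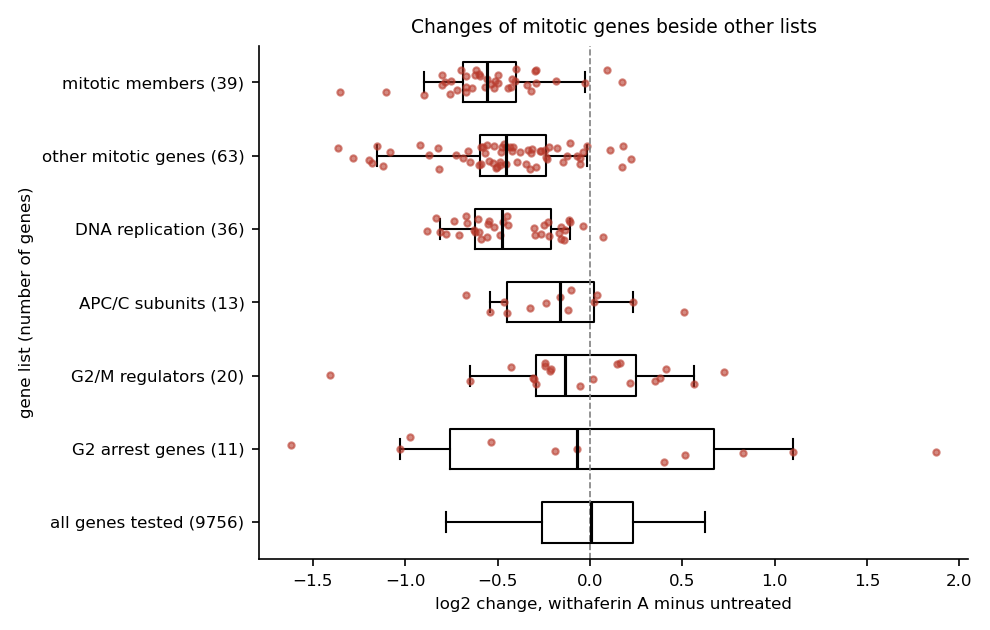
Log2 change, withaferin A minus untreated, of the mitotic members and the other lists (points, one per gene), with boxes for the quartiles and median and whiskers from the 5th to the 95th percentile. The median is -0.56 for the 39 members, -0.46 for the other mitotic genes, -0.48 for DNA replication genes and 0.01 for all 9756 genes tested, while the G2 arrest genes run from -1.62 to 1.87.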

How the data were processed

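Biotin-labelled total RNA of 3 withaferin A and 3 untreated samples was hybridised, per the labels. The authors deposited probe intensity values, which by their range are raw, with a detection score per probe that was read as 1 minus the detection p. The deposited log2 value table was found to be centred within same-numbered pairs of arrays, mirrored to within 1e-06, with column medians of 0.000566, 0.00265 and 0.00108 for withaferin A and -0.000566, -0.00265 and -0.00108 for untreated arrays 1 to 3. How it was normalized between arrays is unknown, and it served as an alternative.

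Background was removed by normexp (offset 16), followed by quantile normalization and log2 (neqc, limma 3.58.1, R 4.3.3). Tests ran on the 19077 of 45281 probes that passed the detection threshold of 0.05 on 3 or more of the 6 arrays. Gene symbols came from the platform annotation, in which 10378 probes were not listed and 18 of 34903 had several symbols and named no gene. Groups were compared with lmFit and eBayes, two-sided, and Benjamini-Hochberg adjustment over all tested probes with a threshold of 0.05. The fit was also run on simulated data with independent noise for each probe. Those data lacked the spread that the members share, so they do not bear on it. The number of arrays limits the precision.

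Members and lists were chosen with earlier results of these data known. Values on every array are given for called members, for the 3 largest changes in each of the 7 roles, and for Top2a, Bub3, Cdc20 and Mki67 (the last not analysed here). Of each other list, up to 5 called genes are named. Members named for another reason are said to be so, and the counts of arrays on which groups were apart under other scalings were added after seeing the data. Alternatives covered background correction, normalization, the filter, the value table, the variance model, weights per array, a block for the replicate number, the probe per gene and leaving out each array.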

Additional observations from a re-analysis of the deposited data

How the results depend on the processing

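The median change of the members was negative under every alternative listed here, and the number of members that passed was not stable. Against 2 of 39 members, 666 genes and 6 other mitotic genes, the counts were 1, 586 and 3 without background correction, 17, 1428 and 20 with median scaling, 21, 1688 and 28 without normalization between arrays, 2 of 37, 528 and 4 for probes detected on all 6 arrays, 0 of 48, 337 and 0 without a filter, 2, 695 and 6 with an intensity trend and robust variance, 7, 2150 and 12 with array weights, 3, 658 and 5 with the mean of all probes, and 31, 2687 and 35 in the paired form of the deposited value table, where pairs were centred by its makers. Every call on a member was lower. Members passed less often than all genes with array weights (17.9% against 22%) and without background correction (2.56% against 6.01%). This held for probes detected on all arrays (5.41% against 6.11%), with an intensity trend (5.13% against 7.12%) and without a filter (0% against 1.77%). Their share was higher with median scaling (43.6% against 14.6%), without normalization (53.8% against 17.3%) and in paired form (79.5% against 27.5%). It was 7.69% against 6.74% with the mean of probes. Leaving out 1 array gave 0 to 9 members, 238 to 886 genes and 0 to 8 other mitotic genes. The members' median, -0.56 in the main setting, was -0.47 without background correction, -0.77 with median scaling, -0.81 without normalization, -0.57 for probes detected on all arrays, -0.50 without a filter, -0.48 in the value table, -0.36 with array weights, -0.53 with the mean of probes, and -0.73 to -0.36 with 1 array left out.

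Signs turned for Bub3, to -0.15 with median scaling, -0.19 without normalization, -0.0014 without withaferin A array 1 and -0.074 without untreated array 2, for Cdca8, to 0.22 with array weights, 0.13 and 0.0093 without withaferin A array 2 or 3 and 0.24 without untreated array 1, for Cdca5, to -0.073 with median scaling, -0.12 without normalization and -0.027 without untreated array 2, and for Cdc25b and Pttg1, to 0.018 and 0.054 without withaferin A array 2. The other 34 tested members kept their sign in every setting that tested them. With 1 array left out, Bub3 ran from -0.074 to 0.25, Cdca8 from -0.24 to 0.24 and Cdc25b from -0.35 to 0.018. The cause of these shifts was not tested. With array weights the estimation gave a convergence warning.

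The replicate number as a block gave 12 members, 1023 genes and 14 other mitotic genes. Whether the numbers pair the arrays is not known. Deviations of same-numbered arrays over all tested probes correlated at 0.27, -0.04 and 0.32, and withaferin A array 2 correlated best with untreated array 1, at 0.27. Over the members, same-numbered arrays correlated at 0.13, -0.29 and -0.04. The highest value there was 0.37, between withaferin A array 3 and untreated array 2. With 3 arrays per group the deviations depend on each other, so these correlations cannot decide it. Array 1 was the highest in both groups for 36 of 39 members, against 9.13% of all genes. Signal near background limits Ccna2, Ube2c and the 9 members that were not tested, and changes of this size between 3 and 3 arrays may be missed.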
